A study of Mus musculus with 18 samples.

Results

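The difference between binucleated and mononucleated mouse cardiomyocytes was compared between 2 ages, E18.5 (shortly before birth) and P7 (postnatal day 7). In each gene the class difference, defined as the mean log2 value of binucleated libraries minus that of mononucleated libraries, was taken at each age. The E18.5 difference was then subtracted from the P7 difference, and the result is called the age shift: a negative shift means that binucleated cells stood lower relative to mononucleated cells at P7 than they had at E18.5. It rests on 12 of the 18 libraries of the series, 3 in each of the E18.5 mononucleated, E18.5 binucleated, P7 mononucleated and P7 binucleated groups, and on all 12048 genes listed. All libraries came from hearts of Mlc2vcre:R26REYFP mice, which carry Cre under the ventricular myosin light chain promoter and a yellow fluorescent reporter, and the cells were sorted by their number of nuclei directly into Trizol-LS. No group had another treatment, and the sources used here do not give how the sort told 1 nucleus from 2. The labels do not say that replicates were separate animals, so the p-values measure the spread between these libraries, which may be technical. Levels are given as normalised read counts, which are the whole read counts recovered from the deposited values, put on a common library scale.

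Mouse heart muscle cells stop dividing soon after birth. Most of them go through a last round in which DNA is copied and the nucleus divides but the cell body does not, which leaves 1 cell with a pair of nuclei. A cycling cell first makes the proteins that license and copy DNA, largely under the E2f transcription factors, and later those that condense and separate chromosomes, largely under the DREAM and B-Myb complexes. A gene of either phase can therefore mark a cell before, during or after it becomes binucleated.

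The labelled cell type matched its markers. Summed over 7 cardiomyocyte genes (Myl2, Tnnt2, Actc1, Myh6, Actn2, Ttn and Ryr2), normalised counts lay between 486918 and 607897 in the E18.5 libraries and between 656029 and 891037 at P7, and the libraries held 14833334 to 22690952 recovered counts. E18.5 binucleated replicate 1 had the lowest total and stood apart. The deviations of its genes from the mean of its fellow replicates had an SD of 1.22 (log2), while those of the other 5 E18.5 libraries had SDs of 0.687 to 0.839 and those of the 6 P7 libraries of 0.460 to 0.544. Its summed ribosomal protein count was 528943, against 196268 and 197383 in the other 2 E18.5 binucleated libraries. Results are therefore given with and without it.

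Binucleated cells mostly stood lower relative to mononucleated cells at P7 than at E18.5. The age shift passed the limma test (adjusted p under 0.05) in 281 genes, 2.33% of all genes listed. Of these, 253 had a negative shift (2.1% of all genes) and 28 a positive one (0.232%). By sign of the estimate, 218 of the 281 were higher in binucleated cells at E18.5 and lower at P7, and 28 did the reverse. Another 30 were lower at both ages and 5 higher at both. Among all genes the same 4 patterns held 2849, 3375, 2725 and 3099 genes. Genes called for a large shift tend to have opposite signs at the 2 ages, so these counts only describe them. Over all genes the median shift was 0.00.

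The called genes owed their shift to either age. In 173 of the 281 the class difference was larger in size at P7, and in 108 at E18.5, while among all genes it was larger at P7 in 4592 and at E18.5 in 7456. Of the 281, 143 were also called in the class difference at P7 alone, 68 in that at E18.5 alone, 5 of them in both, and 75 in neither. Over all genes the P7 class difference called 256 (2.12%), of which 248 were lower in binucleated cells (2.06%) and 8 higher (0.0664%). That at E18.5 called 97 (0.805%), of which 89 were higher (0.739%) and 8 lower (0.0664%). Under quantile normalisation the E18.5 calls were 84 higher and 29 lower. In 221 genes (1.83% of all) each binucleated library lay above every mononucleated library at E18.5 and below every one at P7, and 102 of the 253 genes with a called negative shift did so. The reverse order held in 151 genes (1.25%), 15 of them among the 28.

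Without E18.5 binucleated replicate 1 the test called 568 genes (4.71%), 441 with a negative (3.66%) and 127 with a positive shift (1.05%). They included 276 of the 281, and all 281 kept the sign of their shift. The class difference then called 137 genes at E18.5 (1.14%) and 574 at P7 (4.76%). The calls also depended on single P7 libraries: leaving out 1 library in turn gave counts from 160, without P7 mononucleated replicate 3, to the 568 above.

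**Figure D1:**
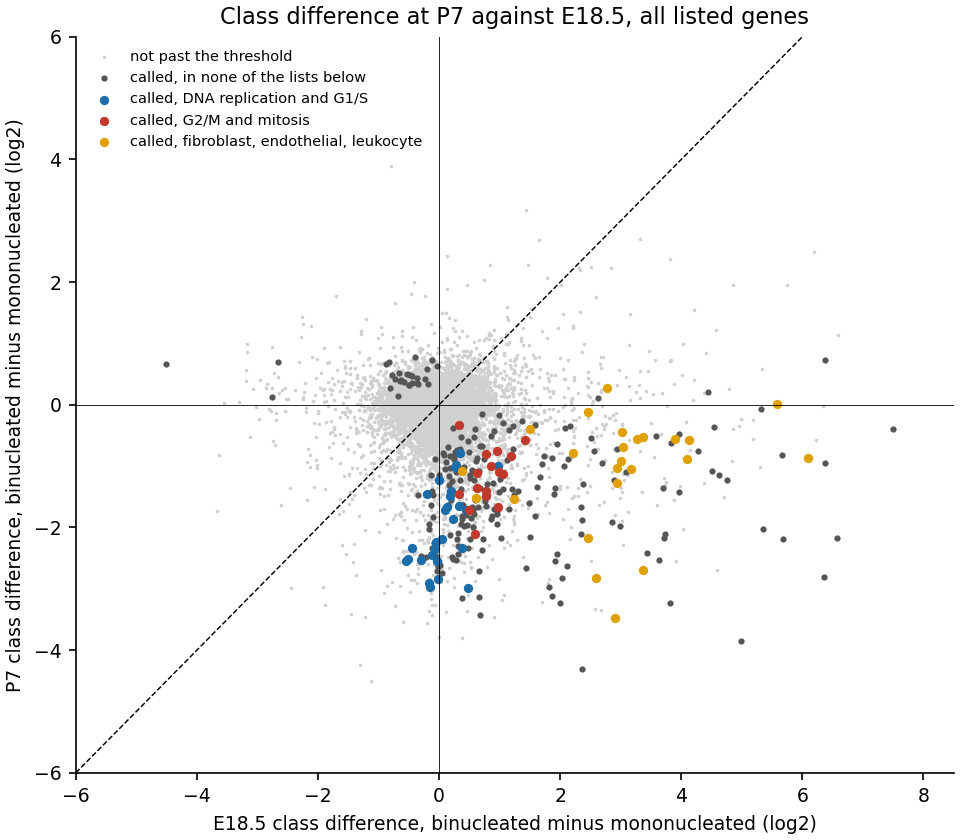
Each point is 1 of the 12048 genes, with its class difference (log2, binucleated minus mononucleated) at E18.5 on the horizontal and at P7 on the vertical axis. Genes on the dashed line have the same difference at both ages. The called genes lie mostly below the line, those of DNA replication near 0 at E18.5 and far below 0 at P7, and those of fibroblasts, endothelium and leukocytes far to the right.

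The genes with a negative shift fell into unlike groups. Of the 253, 56 belonged to 7 lists of cell cycle genes, whose measured members, called or not, also numbered 253. The class difference was larger at P7 in 51 of these 56 and in 186 of all 253 measured members, and 45 of the 56 were called at P7 and 2 at E18.5. Another 25 belonged to 6 lists of markers of cells other than cardiomyocytes, with 86 measured members. The difference was larger at E18.5 in 20 of these 25 and in 68 of the 86, a share that is also high over all genes (7456 of 12048), and 19 of the 25 were called at E18.5 and 4 at P7. The other 172 were in neither kind of list.

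DNA replication genes were about level between the classes at E18.5 and lower in binucleated cells at P7. Of 58 measured genes of the DNA replication and G1/S list, 27 had a called negative shift and 0 a positive one, 57 lay below 0, and the median shift was -1.80 against 0.00 over all genes. Their median class difference was -0.11 at E18.5 and -1.76 at P7. No gene of the list was called at E18.5 and 45 were called lower at P7. Summed over the list, normalised counts were 66392 to 70397 in E18.5 mononucleated, 58000 to 73551 in E18.5 binucleated, 65564 to 89678 in mononucleated P7 libraries and 24762 to 31258 in binucleated P7 libraries. The P7 binucleated group was thus the 1 group of the 4 that lay apart from the rest. When E18.5 binucleated replicate 1 was left out, 37 of the 58 were called and the median shift was -1.79.

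Ccne2 (ENSMUSG00000028212), the cyclin E2 gene whose product drives entry into S phase, had the smallest adjusted p of this list. Its normalised counts were 909, 745 and 769 in E18.5 mononucleated libraries, 564, 865 and 751 in E18.5 binucleated, 1285, 1892 and 2005 in P7 mononucleated and 251, 158 and 289 in P7 binucleated libraries. The classes overlapped at E18.5, and at P7 all 3 binucleated libraries were lower. The shift was -2.74 ± 0.33 (SE, n = 3 libraries per group, limma adjusted p = 0.000691), from a class difference of -0.17 at E18.5 to one of -2.91 at P7.

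Rrm2 (ENSMUSG00000020649) encodes the small subunit of ribonucleotide reductase, which supplies deoxynucleotides. It had 4907, 5833 and 6688 normalised counts in E18.5 mononucleated, 5774, 6992 and 7550 in E18.5 binucleated, 5093, 6893 and 7683 in P7 mononucleated and 1752, 1695 and 1918 in P7 binucleated libraries. The first 3 groups overlapped and the P7 binucleated libraries lay below all of them, with a shift of -2.08 ± 0.27 (SE, limma adjusted p = 0.000947). Tk1, the thymidine kinase of the nucleotide salvage route, went from a class difference of 0.45 at E18.5 to -1.72 at P7 (shift -2.16 ± 0.32 SE).

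Mcm6 (ENSMUSG00000026355), a subunit of the replicative helicase, had 4250, 4645 and 3987 normalised counts in E18.5 mononucleated and 1667, 4107 and 3748 in E18.5 binucleated libraries. At P7 it had 3674, 5696 and 5538 in mononucleated and 930, 584 and 1079 in binucleated libraries. The low E18.5 value was that of binucleated replicate 1, and the shift was -2.00 ± 0.41 (SE, limma adjusted p = 0.0149) with it and -2.41 (adjusted p = 0.000485) without it. At the fork, the single-strand binding protein gene Rpa2 shifted by -1.81 ± 0.25 and the clamp loader gene Rfc2 by -1.27 ± 0.19 (SE, limma adjusted p = 0.00136 and 0.00222). Some replication genes were called only without that library: Mcm2, Mcm4, Rrm1 and the polymerase alpha gene Pola1 had adjusted p-values of 0.0533, 0.282, 0.0538 and 0.369 with it and of 0.00187, 0.00701, 0.000703 and 0.00463 without it, and were picked as examples after their values were seen.

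Of the regulators of this program, E2f8, an E2f factor that represses, shifted by -2.81 ± 0.46 (limma adjusted p = 0.00416), with a class difference of 0.28 at E18.5 and -2.54 at P7. Rbl1, the pocket protein p107, shifted by -1.85 ± 0.39, but its call was lost when any 1 of 3 P7 libraries was left out (highest limma adjusted p 0.0611). These were the 2 called genes among 26 E2f, Rb and cyclin regulators, whose median shift was -0.26. Leaving out E18.5 binucleated replicate 1 gave 5 called genes in this list, and 9 in the fit without the adult libraries. E2f1, the activating factor, had 1051, 1177 and 1156 normalised counts in E18.5 mononucleated, 409, 521 and 915 in E18.5 binucleated, 1169, 1651 and 1534 in P7 mononucleated and 203, 175 and 305 in P7 binucleated libraries. Its binucleated libraries were lower at both ages, without overlap. Its shift of -1.74 ± 0.46 was not called (limma adjusted p = 0.0617), and it was called without E18.5 binucleated replicate 1 (0.019). Uhrf1, which brings the maintenance DNA methyltransferase to newly copied DNA, shifted by -2.82 ± 0.57, from -0.02 to -2.84.

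Genes of homologous recombination and the Fanconi pathway, which mend broken DNA and stalled forks, were also level between the classes at E18.5 and lower in binucleated cells at P7. Of 34, 7 had a called negative shift, 32 lay below 0, and the median class difference went from -0.11 at E18.5 to -1.42 at P7. The count was 12 with E18.5 binucleated replicate 1 left out, 13 with voom weights and 17 in the fit to the 12 libraries less that one. Mms22l, which helps stalled forks restart, fell from 524, 621 and 666 normalised counts in P7 mononucleated to 98.8, 114 and 112 in P7 binucleated libraries, and its E18.5 values overlapped (408, 445 and 512 against 294, 512 and 325; shift -2.16 ± 0.35 SE). The checkpoint kinase gene Chek1 shifted by -2.18 ± 0.45 (limma adjusted p = 0.0151, or 0.051 when P7 mononucleated replicate 2 was left out). Bard1, the partner of Brca1, shifted by -3.66 ± 0.74. Its call was lost when libraries of the same replicate number were treated as pairs within each age (limma adjusted p 0.0547).

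Mitotic genes had the same median shift as replication genes, but it was made up of differences at both ages. Of 66 measured genes of the G2/M and mitosis list, 16 had a called negative shift and 0 a positive one, 65 lay below 0, and the median shift was -1.80. All 66 were above 0 in the E18.5 class difference (median 0.87), of which 3 were called, and 61 were below 0 at P7 (median -1.02), of which 8 were called lower. Summed over the list, normalised counts were 52345 to 75211 in E18.5 mononucleated, 114610 to 125649 in E18.5 binucleated, 37862 to 46547 in mononucleated P7 libraries and 22986 to 26635 in binucleated P7 libraries. No 2 of these 4 ranges overlapped.

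The count of called mitotic genes depended on the libraries from which the spread was estimated. Fitted to the 12 libraries without the adult ones, 39 of the 66 were called, 57 also without E18.5 binucleated replicate 1, and 48 with voom weights on the recovered counts. It was 19 without that library in the fit to all groups, and 10 with P7 libraries of the same replicate number treated as pairs. The replication count stayed at 27 in the fit without adult libraries, but it too moved under other alternatives. It was 45 without E18.5 binucleated replicate 1 as well, 38 with voom weights and 21 with P7 libraries paired by number.

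Cenpf (ENSMUSG00000026605), a large kinetochore protein made in G2, had the smallest p of all genes. It had 1066, 1122 and 1396 normalised counts in E18.5 mononucleated, 3324, 2957 and 3221 in E18.5 binucleated, 800, 554 and 643 in P7 mononucleated and 482, 418 and 430 in P7 binucleated libraries. Binucleated libraries were all higher at E18.5 and all lower at P7. The shift was -1.99 ± 0.21 (SE, n = 3 per group, limma adjusted p = 0.000271), a class difference of 1.42 turning to -0.57, and it was called under all 23 alternatives.

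Smc2, a core condensin subunit, had 1052, 877 and 1072 normalised counts in E18.5 mononucleated and 1833, 1929 and 1413 in E18.5 binucleated libraries. At P7 it had 637, 1024 and 1080 in mononucleated and 438, 264 and 279 in binucleated libraries. The order of the classes again turned without overlap (shift -2.26 ± 0.34 SE, limma adjusted p = 0.00222). The spindle checkpoint gene Mad2l1 did the same (class difference 0.63 at E18.5 and -1.11 at P7), as did the spindle assembly factor gene Tpx2 (0.99 and -1.09) and Sgo2a, a protector of centromeric cohesion (1.19 and -0.83); their shifts were -1.74 ± 0.28, -2.08 ± 0.35 and -2.02 ± 0.35.

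Top2a (ENSMUSG00000020914), the topoisomerase that untangles sister chromatids, lay closer to the replication profile. Its normalised counts were 2037, 2803 and 3480 in E18.5 mononucleated, 2532, 3866 and 4025 in E18.5 binucleated, 1823, 2193 and 2240 in P7 mononucleated and 832, 750 and 697 in P7 binucleated libraries. The classes overlapped at E18.5 only (shift -1.78 ± 0.33 SE, limma adjusted p = 0.00892).

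Several well known mitotic genes had shifts of the same size that were not called in the fit to all groups. Ccnb1, the mitotic cyclin B1, had 1971, 2245 and 3029 normalised counts in E18.5 mononucleated, 6180, 6698 and 6923 in E18.5 binucleated, 771, 756 and 1028 in P7 mononucleated and 764, 882 and 611 in P7 binucleated libraries. Its classes were far apart at E18.5 and overlapped at P7 (shift -1.65 ± 0.58 SE, limma adjusted p = 0.185). Cdk1, its kinase, had 1082, 1465 and 1658 in E18.5 mononucleated, 3057, 2142 and 1927 in E18.5 binucleated, 1059, 1224 and 1530 in P7 mononucleated and 501, 474 and 461 in P7 binucleated libraries, which did not overlap at either age (shift -2.15 ± 0.77, adjusted p = 0.196). Aurkb, the kinase of the chromosomal passenger complex, shifted by -2.43 ± 0.74 (adjusted p = 0.11), and the proliferation marker gene Mki67 by -1.67 ± 0.60 (adjusted p = 0.192). In the fit to the 12 libraries alone the limma adjusted p was 0.00734 for Ccnb1, 0.00335 for Cdk1, 0.00222 for Aurkb and 0.0055 for Mki67.

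Lists of genes that act at the end of division or on other parts of the cell cycle had smaller medians. Of 30 cytokinesis genes 2 had a called negative shift, and the median was -0.61. As in the mitosis list the count depended on the fit: it was 8 in the 12 libraries alone, 12 when E18.5 binucleated replicate 1 was left out as well, 9 with voom weights and 0 with P7 libraries paired by number. The 2 were Incenp, the scaffold of the passenger complex, and Plk4, the kinase that starts centriole copying (-1.47 ± 0.35 and -1.45 ± 0.36). The call of Incenp was lost without any 1 of 10 libraries and that of Plk4 without any 1 of 11 (highest limma adjusted p 0.096 and 0.127). Of 26 centrosome genes 2 were called, the gamma-tubulin gene Tubg1 (-0.90 ± 0.16) and the augmin subunit gene Haus4 (-1.39 ± 0.30). Tmpo, a lamina-associated protein, was the 1 called gene of 25 of the nuclear envelope (-0.83 ± 0.19), and Cdkn2c, an inhibitor of the G1 kinases Cdk4 and Cdk6, the 1 of 19 CDK inhibitors and p53 response genes (-1.52 ± 0.33). Leaving out 1 library cost the calls of Haus4 (highest limma adjusted p 0.0648), Tmpo (0.0761) and Cdkn2c (0.0666), and that of Tmpo was also lost with P7 libraries paired by number (0.0518). With E18.5 binucleated replicate 1 left out, 4 centrosome and 4 nuclear envelope genes were called, and the medians of these lists went from -0.52 to -0.82 and from -0.14 to -0.46. None of 13 replication-dependent histone genes was called, and their median shift was -0.84 with E18.5 binucleated replicate 1 and -0.09 without it.

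**Figure D2:**
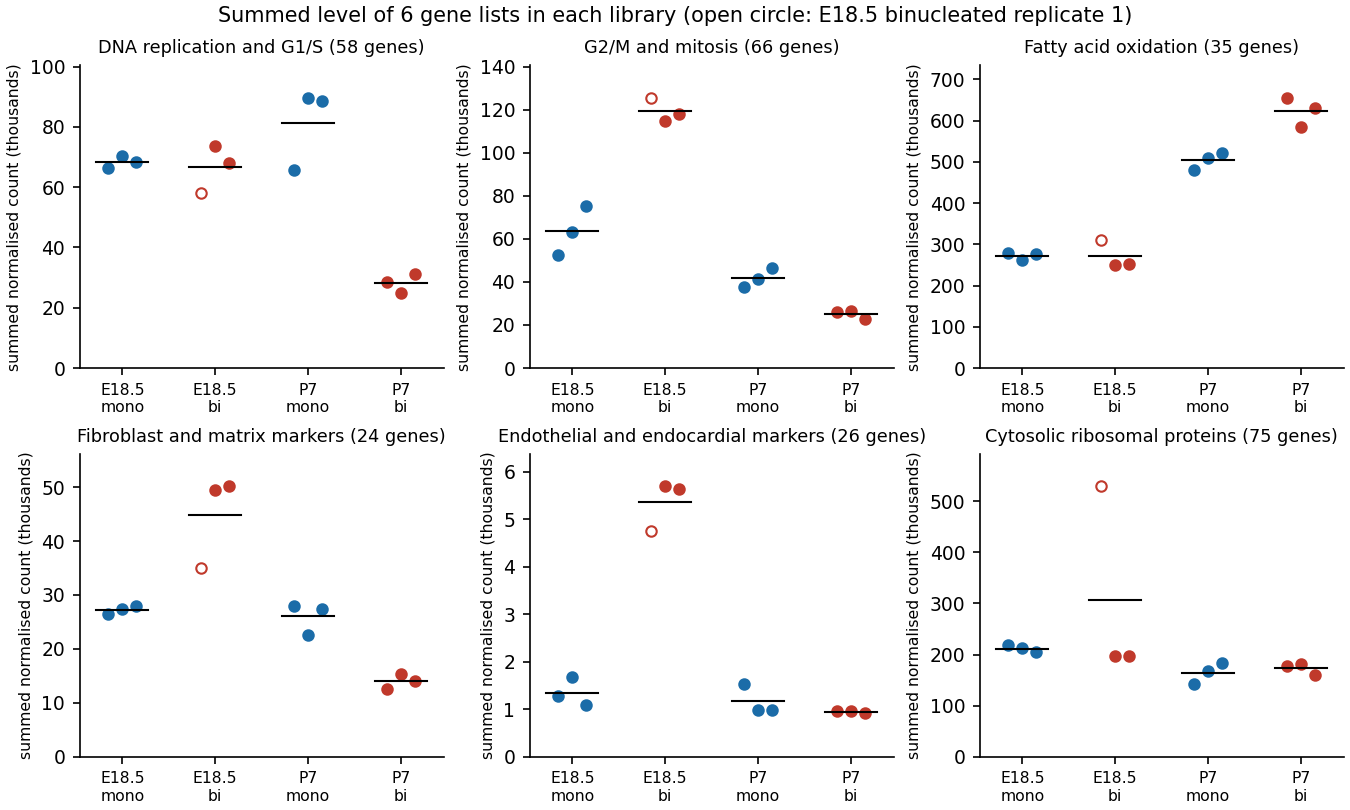
Normalised counts summed over each list (shown divided by 1000, axis from 0) in each of the 12 libraries, with the group mean as a line. The replication sum is low only in P7 binucleated libraries (24762 to 31258), whereas the mitosis sum is highest in E18.5 binucleated libraries (114610 to 125649) and lowest in P7 binucleated ones.

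The promoters of 2 replication and 2 mitosis genes are shown because these lists differ in the E18.5 class difference and are known to be read through different promoter elements. Each is the 250 bases before the RefSeq start site (build GRCm38.p6), on the gene's own strand. Capitals mark matches on either strand to a CHR element, a CCAAT box or an E2f element. The CHR element was searched as TTTGAA and in its other form TTCGAA, the CCAAT box by the letters of its name, and the E2f element as TTCCCGC together with the related strings TTGGCGC and, further, TTCGCGC and also TTGCCGC. Matches to the E2f forms can overlap one another. The 4 were picked after their values and motifs had been seen. Rrm2 lies at chr12:24708004-24708253 on the plus strand and the others on the minus strand, Mcm6 at chr1:128359706-128359955, Top2a at chr11:99024190-99024439 and Cdk1 at chr10:69352913-69353162.
Rrm2: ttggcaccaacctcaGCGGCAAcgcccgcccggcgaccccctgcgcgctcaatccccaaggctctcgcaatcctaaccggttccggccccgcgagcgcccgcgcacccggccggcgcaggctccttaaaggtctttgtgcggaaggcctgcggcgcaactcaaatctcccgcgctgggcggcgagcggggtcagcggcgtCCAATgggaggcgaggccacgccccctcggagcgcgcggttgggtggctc
Mcm6: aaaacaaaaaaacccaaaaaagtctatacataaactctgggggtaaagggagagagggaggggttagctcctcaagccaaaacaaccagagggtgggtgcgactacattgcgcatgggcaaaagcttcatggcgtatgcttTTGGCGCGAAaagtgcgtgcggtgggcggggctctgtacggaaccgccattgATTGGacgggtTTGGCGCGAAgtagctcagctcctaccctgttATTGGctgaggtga
Top2a: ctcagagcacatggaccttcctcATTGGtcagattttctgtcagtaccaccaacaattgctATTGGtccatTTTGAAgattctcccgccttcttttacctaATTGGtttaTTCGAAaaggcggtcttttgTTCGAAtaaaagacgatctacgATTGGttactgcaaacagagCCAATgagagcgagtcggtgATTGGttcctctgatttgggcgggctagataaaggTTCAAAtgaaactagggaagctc
Cdk1: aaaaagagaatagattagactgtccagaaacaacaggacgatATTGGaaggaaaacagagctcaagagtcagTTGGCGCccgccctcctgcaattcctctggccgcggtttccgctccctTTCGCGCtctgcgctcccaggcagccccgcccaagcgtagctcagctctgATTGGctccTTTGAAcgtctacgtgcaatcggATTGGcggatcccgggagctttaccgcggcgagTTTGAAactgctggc
Over whole lists, E2f elements were more common in replication promoters and CHR elements in mitosis promoters. A promoter entry was found for 47 of the 58 replication genes (57 promoters) and 54 of the 66 mitosis genes (58 promoters). An E2f element was present in 40.4% of replication and 20.7% of mitosis promoters, against 7.89% of all 32851 promoters in the table and 13.9% of the 12069 of genes listed here. A CHR element was present in 15.8% and 44.8%, against 17.1% and 12%, and a CCAAT box in 52.6% and 70.7%, against 33.8% and 35.4%. In the 4 promoters shown, Top2a held 4 CHR matches and 0 of E2f, and Mcm6 held 4 of E2f and 0 of CHR. Cdk1 held 2 CHR and 2 E2f matches, and Rrm2 held 1 of E2f and 0 of CHR. These matches describe the letters in the window and were not tested against the expression values.

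Markers of other heart cells were higher in binucleated libraries at E18.5, where 7 fibroblast, 10 endothelial and 6 leukocyte genes were called higher, against 0 of each at P7. In bulk RNA, fewer cells of a type and less RNA per cell cannot be told apart. Of 24 fibroblast and matrix genes 11 had a called negative shift (median -3.16, with a class difference of 2.89 at E18.5 and -0.73 at P7), or 7 with P7 libraries paired by number. Of 26 endothelial and endocardial genes 10 were called (median -3.03; 2.83 at E18.5 and -0.39 at P7), or 5 under quantile normalisation and 5 in the fit to the 12 libraries alone. Of 9 leukocyte genes 3 were called (median -3.79). Without E18.5 binucleated replicate 1 the counts were 14, 12 and 4.

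Dcn (ENSMUSG00000019929), the matrix proteoglycan decorin, had 64.1, 42.2 and 161 normalised counts in E18.5 mononucleated, 1374, 1184 and 1337 in E18.5 binucleated, 95.9, 23.3 and 69.1 in P7 mononucleated and 17.9, 34.9 and 38.7 in P7 binucleated libraries. The E18.5 binucleated libraries stood apart from the other 9, which overlapped across groups except for E18.5 mononucleated and P7 binucleated libraries. The shift was -4.97 ± 0.73 (SE, limma adjusted p = 0.00222). Col5a1, a chain of type V collagen, shifted by -4.21 ± 0.61. Fbln2, a matrix glycoprotein, Mmp2, a matrix protease, and Eln, the elastin gene, were also lower in all 3 P7 binucleated libraries than in any P7 mononucleated one (shifts -6.39 ± 0.95, -6.07 ± 1.04 and -4.64 ± 0.85). Fbln2 and Mmp2 had only 13 and 7 recovered counts over the 3 P7 binucleated libraries. The P7 class difference was called for Fbln2 (limma adjusted p = 0.00927) but not for Mmp2 (0.0758) or Eln (0.0812). Col3a1, a fibrillar collagen gene, shifted by -3.83 ± 0.93 and lost its call without any 1 of 8 libraries (highest limma adjusted p 0.11).

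Emcn, an endothelial sialomucin, had 16.0, 30.3 and 5.64 normalised counts in E18.5 mononucleated and 107, 160 and 196 in E18.5 binucleated libraries, and at P7 13.6, 7.77 and 12.1 against 7.36, 9.05 and 5.87. Only the E18.5 binucleated libraries stood apart, and the shift was -3.89 ± 0.66 (SE, limma adjusted p = 0.00542). The receptor gene Cd93 and the endothelial transcription factor gene Fli1 shifted by -3.97 ± 0.62 and -4.70 ± 0.80. Fabp4, a fatty acid binding protein of capillary endothelium, shifted by -2.58 ± 0.53, and lost its call with voom weights (limma adjusted p 0.0697).

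Among leukocyte genes, C1qc, a chain of complement C1q made by macrophages, had 0 counts in all 3 E18.5 mononucleated libraries and normalised counts of 22.5, 48.3 and 22.7 in binucleated ones, at least 35.6-fold higher (floor of 3 counts over the group). At P7 it had 4 recovered counts over the mononucleated libraries and 0 over the binucleated ones. Cd68 shifted by -4.46 (limma adjusted p = 0.0432) and lost its call without any 1 of 10 libraries (highest limma adjusted p 0.254). The anchor gene C1qb, another C1q chain, was not called (shift -3.79, limma adjusted p = 0.13). Pdgfrb, the pericyte receptor gene, was also at 0 in E18.5 mononucleated libraries and at 22.5, 178 and 120 in binucleated ones, at least 122-fold higher. It was the 1 called gene of 12 pericyte and smooth muscle genes, and its call was lost under quantile normalisation (limma adjusted p 0.0574). At P7 its values were 51.6, 2.91 and 3.64 in mononucleated and 4.21, 6.46 and 9.39 in binucleated libraries, which overlapped.

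Lyz2, the lysozyme of myeloid cells, was different at P7. It had 65.9, 32.7 and 48.0 normalised counts in E18.5 mononucleated, 207, 185 and 597 in E18.5 binucleated, 372, 310 and 536 in P7 mononucleated and 45.2, 40.1 and 92.8 in P7 binucleated libraries. The order of the classes turned without overlap, and the shift of -5.41 ± 0.60 (SE, limma adjusted p = 0.000271) was called under all 23 alternatives.

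The endothelial, fibroblast and leukocyte marker sums, like the mitotic sum, were higher in binucleated than in mononucleated libraries at E18.5. Within the E18.5 binucleated group, replicate 1 had the highest mitotic sum (125649) but the lowest of these 3 marker sums. The erythroid and epicardial sums were higher too. The pericyte and smooth muscle sum was lower, with 62947 to 64908 in E18.5 mononucleated and 56255 to 62302 in E18.5 binucleated libraries. Of its 12 members, however, 7 lay above 0 in the E18.5 class difference. Their median was 0.24, or 0.06 without E18.5 binucleated replicate 1, the other way from the sum. Endothelial markers summed to 1098 to 1680 normalised counts in E18.5 mononucleated, 4751 to 5694 in E18.5 binucleated, 980 to 1541 in mononucleated P7 libraries and 922 to 965 in binucleated P7 libraries. Fibroblast markers summed to 26395 to 28026, 34911 to 50120, 22637 to 28005 and 12547 to 15332 in the same order, and leukocyte markers to 76.5 to 81.0, 306 to 925, 322 to 550 and 59.5 to 109. At P7 the leukocyte sum was mostly Lyz2, and 6 of the 9 members lay above 0 in the P7 class difference (median 0.43), the other way from the sum. Of the 9 leukocyte genes 4 were at 0 in all 3 E18.5 mononucleated libraries and 0 in all 3 E18.5 binucleated ones. The part of these cells in the mitotic and replication results was not tested. The 7 cardiomyocyte markers summed to 520889 to 607897 in E18.5 mononucleated and 486918 to 551212 in E18.5 binucleated libraries, which overlapped. At P7 the sums did not overlap: they ran from 656029 to 695794 in mononucleated P7 libraries and from 781926 to 891037 in binucleated P7 libraries.

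**Figure D3:**
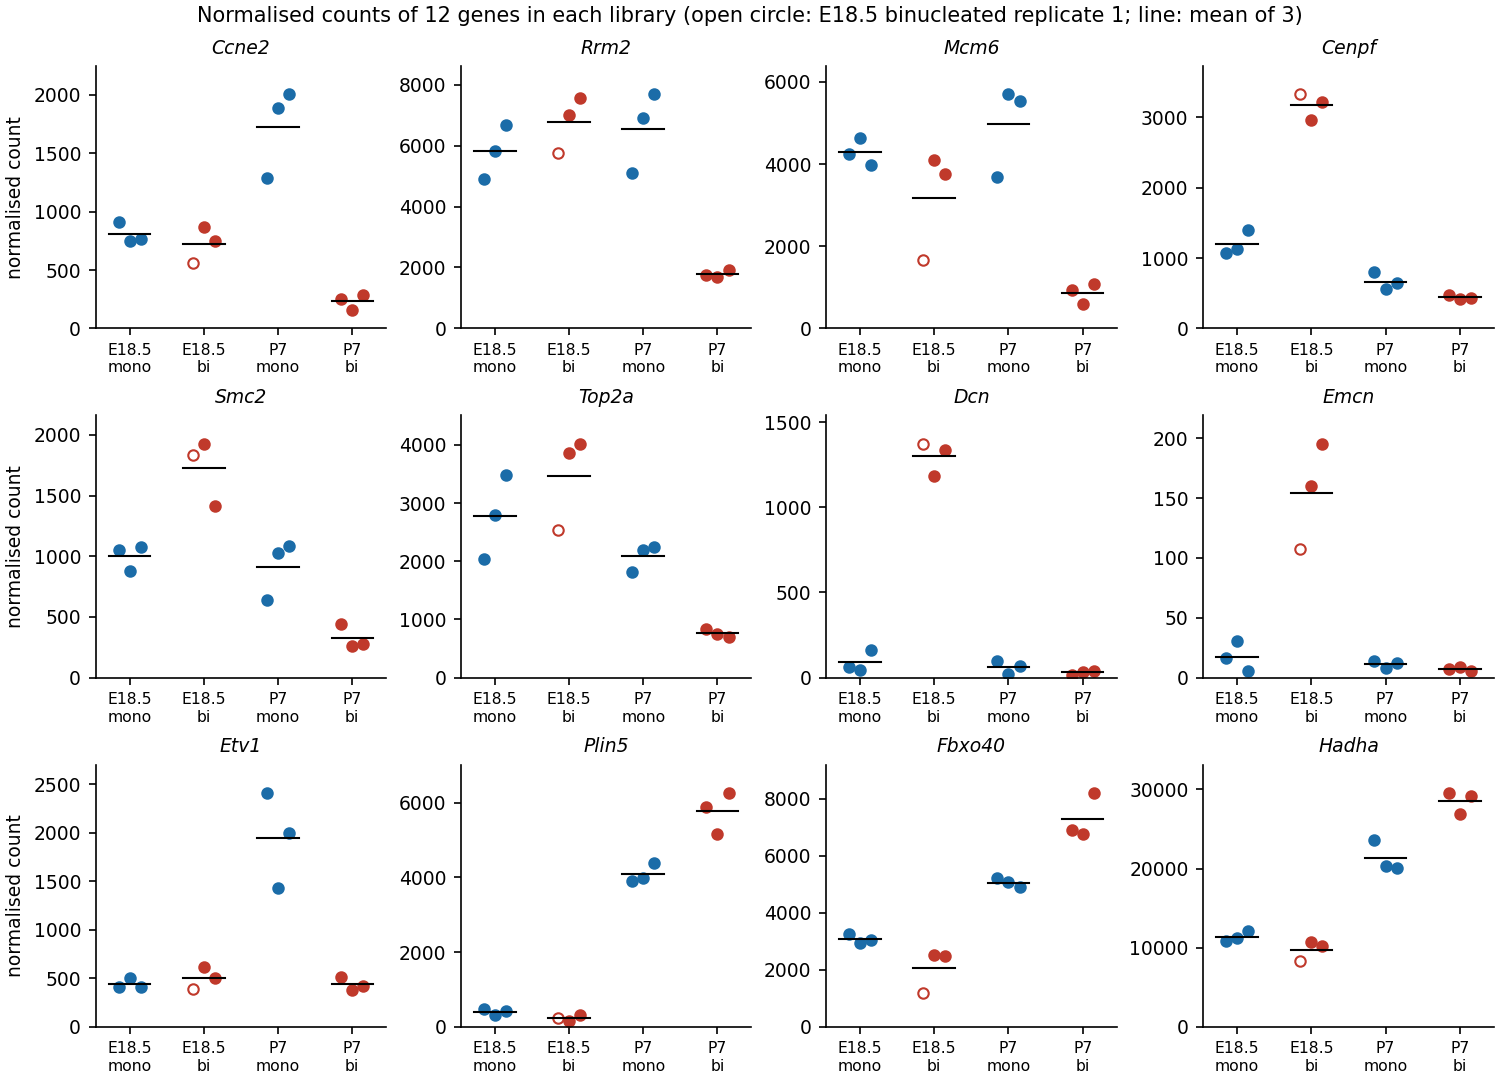
Normalised counts (axis from 0) of 12 genes in each library, with the mean of 3 as a line and E18.5 binucleated replicate 1 as an open circle. Ccne2, Rrm2 and Mcm6 are low in P7 binucleated libraries, Cenpf and Smc2 change the order of the classes between the ages, Dcn and Emcn are high in E18.5 binucleated libraries alone, Etv1 is high in P7 mononucleated libraries alone, and Plin5, Fbxo40 and Hadha are highest in P7 binucleated libraries.

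Conduction system and atrial genes were mostly lower in P7 binucleated than in P7 mononucleated cells. Of 16 conduction system genes 5 had a called negative shift, the median class difference being 0.03 at E18.5 and -2.08 at P7, and of 12 atrial genes 2 were called (median 0.19 at E18.5 and -1.20 at P7). With E18.5 binucleated replicate 1 left out, 8 and 4 were called. Over all genes 2.1% had a called negative shift, and 3.66% without that library. Etv1 (ENSMUSG00000004151), a transcription factor of fast-conducting myocardium, had 407, 506 and 415 normalised counts in E18.5 mononucleated, 394, 613 and 507 in E18.5 binucleated, 2412, 1429 and 1993 in P7 mononucleated and 515, 375 and 424 in P7 binucleated libraries. The P7 mononucleated libraries stood apart and the other 3 groups overlapped (shift -2.30 ± 0.33 SE, limma adjusted p = 0.00199).

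In other genes, too, the P7 mononucleated libraries were the highest of the 12. Tbx3, a transcription factor of the nodes and bundles, shifted by -2.91 ± 0.55, and Ntm, a neural cell adhesion molecule, by -2.68 ± 0.50. Ntm had 126 to 231 normalised counts over the 6 E18.5 libraries, 1896, 928 and 1005 in P7 mononucleated and 237, 153 and 173 in P7 binucleated libraries. Among atrial genes, Stard10, a lipid transfer protein, and Myl1, an essential myosin light chain, shifted by -2.61 ± 0.48 and -1.74 ± 0.35. In the ventricular list Mpped2, a metallophosphoesterase gene, and Irx5 were called (-2.01 ± 0.30 and -1.25 ± 0.29). Irx5, a homeobox factor that patterns repolarisation across the ventricular wall, lost its call when any 1 of 6 libraries was left out (highest limma adjusted p 0.084). Adamtsl2, a secreted ADAMTS-like glycoprotein in none of the lists, had 48.9 to 154 normalised counts at E18.5, 2496, 1128 and 1777 in P7 mononucleated and 335, 281 and 383 in P7 binucleated libraries (shift -3.07 ± 0.65). In Irx5 and Adamtsl2 the P7 binucleated libraries also lay above every E18.5 library. Its call was lost without any 1 of 3 P7 libraries (highest limma adjusted p 0.0577).

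Other genes with a called negative shift were in none of these lists. Tagln2, an actin-binding protein of the calponin family, had 196, 320 and 297 normalised counts in E18.5 mononucleated, 1005, 819 and 722 in E18.5 binucleated, 126, 112 and 144 in P7 mononucleated and 55.7, 53 and 58.7 in P7 binucleated libraries. The order of the classes turned without overlap (shift -2.84 ± 0.37 SE, limma adjusted p = 0.000947). Neil3, a DNA glycosylase, and Oip5, which helps load the centromeric histone, shifted by -3.20 ± 0.54 and -2.89 ± 0.64, and Oip5 lost its call without any 1 of 7 libraries (highest limma adjusted p 0.0728) and with P7 libraries paired by number.

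Of 17 imprinted and fetal growth genes 2 were called. Mest, a paternally expressed fetal growth gene, had 10254, 9927 and 9257 normalised counts in E18.5 mononucleated, 8217, 10855 and 9634 in E18.5 binucleated, 1307, 775 and 1035 in P7 mononucleated and 196, 149 and 214 in P7 binucleated libraries. The classes overlapped at E18.5 and were apart at P7, within a level that was lower at P7 in both (shift -2.42 ± 0.37 SE, limma adjusted p = 0.00279). Ndn, the growth-restraining gene necdin, shifted by -1.65 ± 0.33. Of 22 interferon response and class I genes 1 was called, H2-D1, a class I histocompatibility chain, with class differences of 1.06 at E18.5 and -0.29 at P7.

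Positive shifts were fewer. In all 28 called genes the estimated class difference was below 0 at E18.5 and above 0 at P7. Of these, 21 were called in neither class difference alone. In all, 26 of the 28 were in no list. The other 2 were among 35 fatty acid oxidation genes, 33 of which lay above 0 in the shift (median 0.44 against 0.00 over all genes; -0.08 at E18.5 and 0.30 at P7). Summed, these 35 genes had 261743 to 278588 normalised counts in E18.5 mononucleated, 250906 to 311394 in E18.5 binucleated, 480776 to 520960 in mononucleated P7 libraries and 585384 to 655386 in binucleated P7 libraries, so that the classes overlapped at E18.5 and were apart at P7. Without E18.5 binucleated replicate 1, 11 of the 35 were called higher, against 1.05% of all genes. In the fit to the 12 libraries alone 0 were called higher, and 9 were when that library was left out as well. With voom weights 3 were called higher.

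Plin5, which coats lipid droplets and ties them to mitochondria, had 468, 308 and 425 normalised counts in E18.5 mononucleated, 235, 163 and 314 in E18.5 binucleated, 3901, 3977 and 4391 in P7 mononucleated and 5873, 5158 and 6267 in P7 binucleated libraries. The classes overlapped at E18.5 by 1 pair of values and were apart at P7 (shift 1.27 ± 0.27 SE, limma adjusted p = 0.0198). Hadha, the alpha subunit of the mitochondrial trifunctional protein, had 10787, 11261 and 12056 against 8331, 10659 and 10210 at E18.5 and 23611, 20331 and 20092 against 29593, 26932 and 29180 at P7, mononucleated before binucleated. The order turned without overlap, with a shift of 0.65 ± 0.15 (limma adjusted p = 0.0321).

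The largest positive shift among the named genes was that of Il13ra1, a chain of the interleukin-13 receptor (1.54 ± 0.38), which fell to 1.06 without E18.5 binucleated replicate 1, the lowest of its 12 libraries. Fbxo40, a muscle ubiquitin ligase component, shifted by 1.18 ± 0.29, and 0.82 without that library. Tnfaip2, a gene induced by tumour necrosis factor, shifted by 1.17 ± 0.29, Acss1, the mitochondrial acetyl-CoA synthetase, by 1.15 ± 0.27, Zfp641, a zinc finger protein, by 1.09 ± 0.27, Kifc3, a minus-end kinesin, by 1.04 ± 0.25 and Efnb3, an ephrin ligand, by 1.03 ± 0.22. Each of the 9 named genes with a positive shift lost its call without at least 1 library, with highest limma adjusted p-values from 0.0559 for Efnb3 to 0.379 for Hadha over all alternatives.

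**Figure D4:**
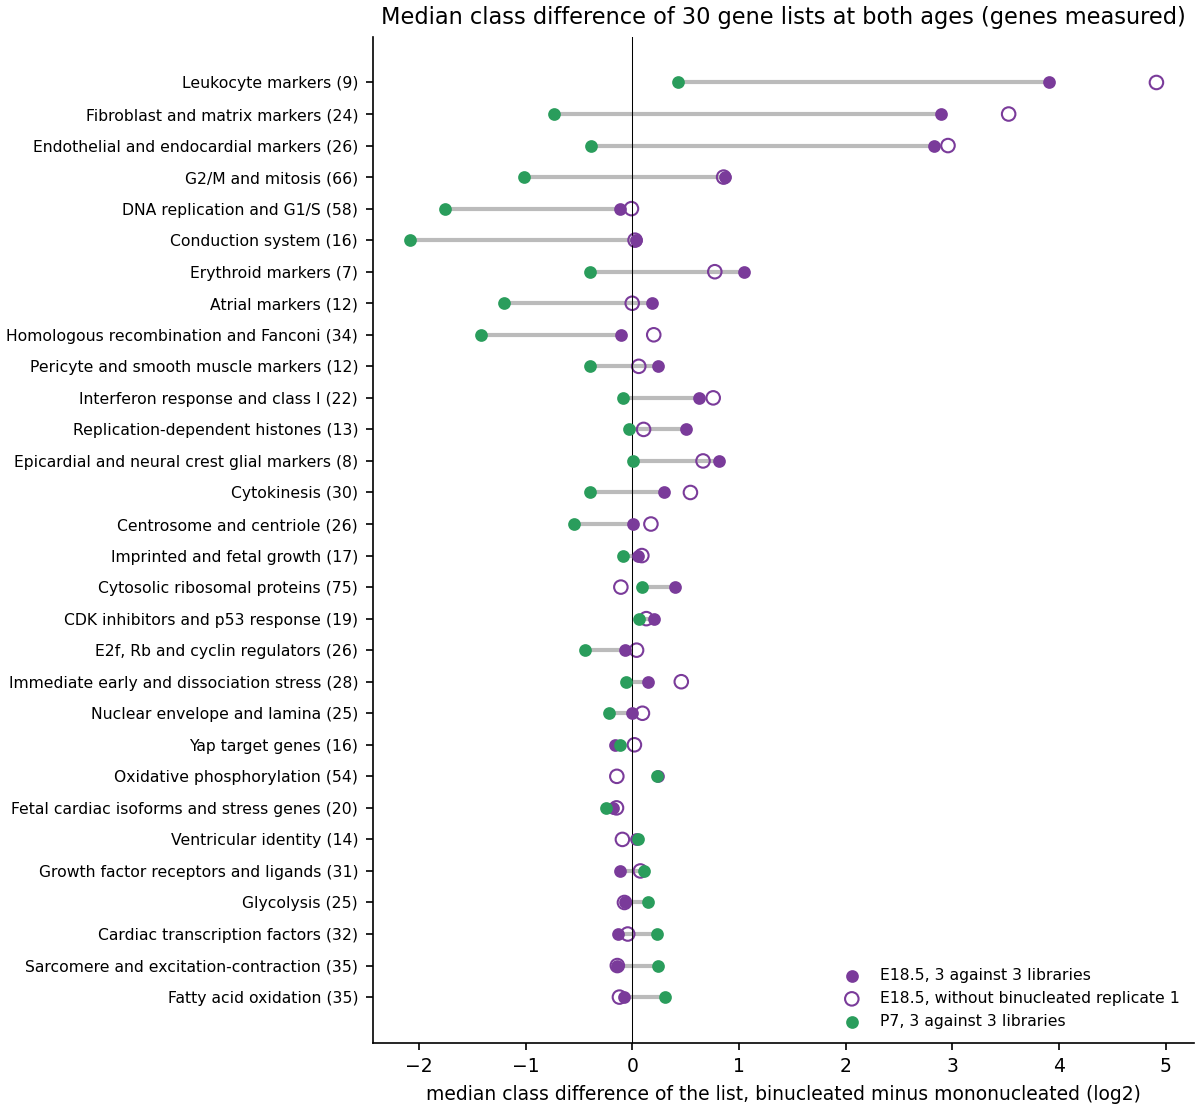
Median class difference (log2, binucleated minus mononucleated) of each of 30 gene lists at E18.5 (purple; open circles without binucleated replicate 1) and P7 (green), ordered by age shift, with the number of measured genes. Both the replication and the mitosis list lie lower at P7, but their E18.5 points differ (-0.11 and 0.87), and for ribosomal proteins the open and filled circles lie on opposite sides of 0.

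The sarcomere, fetal isoform and cardiac transcription factor lists held no called shift in the fit to all libraries. The myosin light chain gene Myl1, counted above in the atrial list, was called. Of 35 sarcomere and excitation-contraction genes, 20 fetal isoform and stress genes and 32 cardiac transcription factor genes, 0 were called by limma (1775 of all genes had an unadjusted p under 0.05), with medians of 0.35, -0.02 and 0.30. Of the 35 sarcomere genes 29 lay above 0 in the shift and 33 above 0 at P7. Their sums did not overlap at P7, running from 1574210 to 1649500 normalised counts in mononucleated P7 libraries and from 1866670 to 2042200 in binucleated P7 libraries. Leaving out E18.5 binucleated replicate 1, 6 of the 35 sarcomere genes were called higher, against 1.05% of all genes. Myl2, the gene whose promoter drives Cre, had 29201, 27478 and 28484 normalised counts in E18.5 mononucleated, 55256, 25806 and 25599 in E18.5 binucleated, 28643, 33559 and 36014 in P7 mononucleated and 38596, 39806 and 35898 in P7 binucleated libraries. The value of 55256 was that of E18.5 binucleated replicate 1. The shift was -0.00 ± 0.30 with it (limma adjusted p = 0.998) and 0.37 without it (0.168).

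Myh6, the adult fast myosin heavy chain, also depended on that library, which had 46890 normalised counts against 155637 and 188132 in the rest of its group. Its shift was 1.14 ± 0.49 (limma adjusted p = 0.291) with it and 0.52 (0.165) without it. The shifts of Tnnt2 (0.18 ± 0.20), Actc1 (0.13 ± 0.22), the fetal myosin Myh7 (0.46 ± 0.58) and Nppa (-0.58 ± 1.02) were not called either.

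For ribosomal proteins and oxidative phosphorylation the direction itself changed when 1 library was left out. Of 75 cytosolic ribosomal protein genes 0 were called, 74 lay below 0 and the median shift was -0.31. Without E18.5 binucleated replicate 1 the median was 0.19 and 0 were called. The median of 54 oxidative phosphorylation genes went from -0.02 to 0.36 in the same way, with 0 and 1 called, and was also above 0 when E18.5 mononucleated replicate 2 or P7 mononucleated replicate 2 or 3 was left out.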

How the data were processed

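RNA-seq of sorted mouse cardiomyocytes gave 18 libraries, 3 in each of 6 groups set by the labels. Per the labels' protocols, RNA was extracted with phenol-chloroform and libraries were made with a TruSeq stranded mRNA kit and a SMARTer amplification kit. The submitters' processing notes name STAR, limma and build mm9; versions, read counter, strand setting, treatment of shared reads and gene filter are not named there, so genes with close copies (histone, globin and ribosomal protein families) are uncertain. The authors deposited log2 values for 12048 genes per library, each equal to log2 of a whole count plus 0.5 times 1 factor per library. Counts were recovered from them (100% whole within 0.001), with totals of 14833334 to 22690952; they carry no molecular identifiers, so floors cover counting error only. The offset of 0.5 understates fold changes of low genes. Symbols were matched for 11927 of 12048 identifiers through GENCODE M21.

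Group means were fitted to the deposited log2 values of all 18 libraries with limma 3.58.1 (R 4.3.3; 12 residual degrees of freedom, intensity trend, two-sided, Benjamini-Hochberg over all genes, threshold 0.05). Adult libraries entered only the estimate of spread. The script was tested on simulated data. The E18.5 and P7 class differences share no library. Normalised counts are recovered counts times the library factor, relative to the geometric mean factor of the 12 libraries. No 2 replicates of a group agreed within sampling noise (chi-square over genes divided by its degrees of freedom, 13.7 to 256). At P7 libraries with the same replicate number deviated together (correlations 0.182, 0.191 and 0.236). The reported fit did not pair them, and pairing by number was run only as an alternative. Promoter sequences come from RefSeq (GRCm38.p6).

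The members, the 30 gene lists and the tests were chosen with earlier results of these data known. Genes are named by rule: up to 8 per direction with the largest shift among called genes in the upper 75% of mean level, in each list the 3 called genes of smallest adjusted p (2 more where 10 or more are called), and 20 anchor genes. Alternatives were leaving out each library, the 12 libraries alone, replicate blocks, quantile and median scaling, array weights, voom, no trend and a low-value filter.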

Additional observations from a re-analysis of the deposited data

Results flagged for a closer look

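The class difference differed between P7 and E18.5 by the test of the difference itself in 281 genes. Over all 12048 genes, 221 (1.83%) were higher in binucleated cells at E18.5 and lower at P7 without overlap, and 151 (1.25%) the reverse. The named genes, anchors aside, were picked for a large shift or a small adjusted p. Among the 64 called named genes, 24 had no overlap between the classes at either age and opposite orders at the 2 ages. The shifts of those in cell cycle, repair or CDK inhibitor lists were -1.99 for Cenpf, -1.27 for Rfc2, -2.16 for Tk1, -2.26 for Smc2, -1.74 for Mad2l1, -2.08 for Tpx2, -2.02 for Sgo2a, -3.66 for Bard1, and -1.52 for Cdkn2c. Those of genes of matrix, vessel and blood cells were -5.41 for Lyz2, -4.21 for Col5a1, -6.39 for Fbln2, -6.07 for Mmp2, -4.64 for Eln and -1.91 for Egfl7. The call of Egfl7 was lost without any 1 of 4 libraries and under quantile normalisation (highest limma adjusted p 0.0785 over all alternatives). The other negative shifts were -3.20 for Neil3, -2.89 for Oip5, -2.84 for Tagln2, -1.35 for H2-D1 and -1.65 for Ndn, and the positive ones were 0.65 for Hadha, 1.04 for Kifc3, 1.54 for Il13ra1 and 1.18 for Fbxo40. Groups of 3 libraries were too small for a test of single outlying values.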

How the results depend on the processing

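No called shift of a named gene changed sign under any alternative; those of Tnnt2, Myh7, Actc1 and Myl2, which were not called, did. The median shift of 11 of the 30 lists changed sign under at least 1 alternative: ribosomal proteins, oxidative phosphorylation, CDK inhibitors, histones, nuclear envelope, fetal isoforms, ventricular, growth factor, Yap target, immediate early and epicardial genes. Leaving out 1 library in turn gave 160 to 568 called shifts, 79 to 282 called genes at E18.5 and 129 to 574 at P7. The shift count moved by over 1.5 times without E18.5 binucleated replicate 1 (568) and without P7 mononucleated replicates 1, 2 and 3 (185, 176 and 160) or P7 binucleated replicates 2 and 3 (163 and 170). The E18.5 count did so without E18.5 binucleated replicate 3 (282, of which 118 were higher), and the P7 count without E18.5 binucleated replicate 1 (574) or any P7 library (129 to 166). Fitted to the 12 libraries alone, E18.5 gave 43 genes; without E18.5 binucleated replicate 1 as well, the shift gave 648 and P7 753. Array weights gave 1199 shifts, 338 genes at E18.5 and 1401 at P7. Voom on recovered counts gave 430 shifts and 204 genes at E18.5, and the low-value filter, which kept 9768 genes, 29 at E18.5. For these counts the cause was not tested. With P7 libraries paired by number (replicate block at P7, chosen after seeing the data) 207 shifts were called; a replicate block over all libraries gave 244 and one within each age 291. At E18.5 same-numbered libraries correlated at 0.0879, 0.0545 and 0.158, and each library of both ages correlated best with its own number. The labels do not say whether the numbers pair libraries at either age. Of the 55 named genes with a called negative shift 37 were called under every alternative, and of the 9 with a positive shift 0 were. The pseudocount alternative was not run, since the values were already on a log scale. Depth limits markers with few counts: 85 genes had a group at 0, and fitted folds of such genes depend on the offset.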

Other observations

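The remaining gene lists held few or no called shifts. None of 25 glycolysis genes (median shift 0.18), 31 growth factor receptors and ligands (-0.00), 28 immediate early and dissociation stress genes (-0.15), 7 erythroid markers (-1.45) and 8 epicardial and glial markers (-0.80, or -0.42 with genes at 0 set to their bound) was called by limma, where 1775 of all 12048 genes had an unadjusted p under 0.05. The erythroid sum went the other way from the erythroid median: it was 7351 to 9860 normalised counts in mononucleated P7 libraries and 14970 to 17816 in binucleated P7 libraries. The anchor gene Hba-a1, a globin gene, shifted by -2.05 (limma adjusted p = 0.708). Of 16 Yap target genes 1 was called, Axl, a receptor tyrosine kinase (-2.42 ± 0.59), and its call was lost without any 1 of 10 libraries (highest limma adjusted p 0.111). Mgp, an inhibitor of matrix calcification, shifted by -3.79 ± 0.94 (limma adjusted p = 0.0448) and lost its call without any 1 of 10 libraries (highest limma adjusted p 0.129). Of the 292 genes called only without that library, Gja5, a connexin of fast-conducting myocardium, had a shift of -2.87, Cntn2, a marker of Purkinje cells, of -7.72, and Bmp10, an atrial growth factor, of -4.18 (limma adjusted p = 0.00623, 0.0094 and 0.013); these examples were chosen after their values were seen. In the same fit the very-long-chain acyl-CoA dehydrogenase gene Acadvl, the acyl-CoA synthetase gene Acsl1 and the Z-disc gene Actn2 had positive shifts of 0.50, 0.49 and 0.43 (limma adjusted p = 0.0106, 0.01 and 0.0188).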
